A study of Homo sapiens with 6 samples.

Results

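*NREP*, *SH3GL2*, *MPDZ*, *MAL*, *NPAS3* and *NCAM1* are 6 genes best known from nerve cells, myelin and cell junctions, and 6 of the 14646 genes in the count table. They were chosen by name because their read counts were clear in GDC0032-sensitive IGROV1 cells and near 0 or low in GDC0032-resistant IGROV1 cells. The values that chose them are the resistant and sensitive counts themselves, so the differences between the groups are described below for these 6 genes, with no test. All 6 passed the filter on low counts and stood among the 13791 genes that were fitted. *NREP*, *SH3GL2*, *MPDZ* and *NPAS3* passed it only through the sensitive libraries.

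IGROV1 is a *PIK3CA*-mutated ovarian cancer cell line, and GDC0032 (taselisib) is a PI3K inhibitor that spares the beta isoform. IGROV1Res, the GDC0032-resistant form, was derived from the parental line by prolonged culture in rising concentrations of the inhibitor, and IGROV1Sen is the GDC0032-sensitive form, with 3 libraries of total RNA in each group. The sample names hold the letters UT, taken here to mean no GDC0032 in the medium, although no label explains them. For RNA sequencing the paper describes cells given either GDC0032 or DMSO. Whether the UT cells received DMSO is not labelled. Only 1 resistant derivative of IGROV1 was analysed, so what is particular to it and what goes with resistance cannot be told apart. Whether replicates are separate cultures is not labelled, so a p-value here reflects no more than how far the libraries of a group differ.

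The libraries held 13809141, 14179886 and 14064748 counts in IGROV1Res replicates 1, 2 and 3, and 12808922, 15241394 and 14287516 counts in IGROV1Sen replicates 1, 2 and 3. Levels are given as CPM, the count of a gene scaled to the TMM-normalized size of its library, where 1 read stood for 0.0661 to 0.0786 CPM. Where a library had 0 counts, levels under 0.198 to 0.236 CPM (3 counts) could not be seen, and this limit and every counting interval cover counting error only. IGROV1Res replicate 3 and IGROV1Sen replicate 1 stood apart by their share of mitochondrially encoded counts, which was 6.94% and 7.02%, against 10.1% to 12.8% in the other 4 libraries. *PAX8*, a transcription factor of Müllerian epithelium, had 819 ± 125 CPM in IGROV1Res and 832 ± 84.4 CPM in IGROV1Sen (SD, n = 3 each), while *EPCAM*, an epithelial adhesion molecule, was at 1.93 ± 1.03 CPM in IGROV1Res and 0.729 ± 0.1802 CPM in IGROV1Sen.

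The 6 genes encode proteins with separate jobs. Neurons place adhesion molecules of the immunoglobulin superfamily on their surface, recover synaptic vesicles by clathrin-mediated endocytosis, and hold receptors in place with multi-PDZ scaffolds. Epithelial cells use related machines for polarity: PDZ scaffolds at tight junctions, and MARVEL-domain membrane proteins for sorting to the apical surface. *NCAM1* encodes the neural cell adhesion molecule (CD56), *SH3GL2* the brain-enriched endophilin A1, *MPDZ* the multi-PDZ scaffold MUPP1, *MAL* a MARVEL-domain proteolipid of lipid rafts, *NPAS3* a basic helix-loop-helix PAS transcription factor of the developing brain, and *NREP* the small protein P311, which is linked to neuronal regeneration and to TGF-beta production.

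Since the 6 genes were low together, their promoters were compared. RefSeq windows of 300 bases (250 before and 50 after a gene's start, GRCh38.p14) were at hand for 5 of them, 10 windows in all. The 4 genes with 1 window each are shown as the 250 bases before the RefSeq start of that window, with GGGCGG, a GC box, in capitals on either strand. *SH3GL2* is read from chr9:17578816-17579065 (plus strand), *MPDZ* from chr9:13279693-13279942 (minus strand), *MAL* from chr2:95025458-95025707 (plus strand) and *NPAS3* from chr14:32938629-32938878 (plus strand), each 5′ to 3′. The *NPAS3* stretch lies inside the gene model given below, which begins at 32934933, so it does not precede the first start of that model.

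SH3GL2: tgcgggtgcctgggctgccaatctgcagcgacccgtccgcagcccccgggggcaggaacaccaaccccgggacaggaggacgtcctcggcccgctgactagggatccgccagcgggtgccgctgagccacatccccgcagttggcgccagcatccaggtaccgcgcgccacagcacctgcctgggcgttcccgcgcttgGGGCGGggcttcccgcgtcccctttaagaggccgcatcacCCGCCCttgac
MPDZ: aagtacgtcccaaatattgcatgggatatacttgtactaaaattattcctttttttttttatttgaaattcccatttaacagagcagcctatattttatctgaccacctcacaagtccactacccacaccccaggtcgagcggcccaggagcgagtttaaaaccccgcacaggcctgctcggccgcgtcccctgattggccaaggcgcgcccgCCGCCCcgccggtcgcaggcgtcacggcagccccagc
MAL: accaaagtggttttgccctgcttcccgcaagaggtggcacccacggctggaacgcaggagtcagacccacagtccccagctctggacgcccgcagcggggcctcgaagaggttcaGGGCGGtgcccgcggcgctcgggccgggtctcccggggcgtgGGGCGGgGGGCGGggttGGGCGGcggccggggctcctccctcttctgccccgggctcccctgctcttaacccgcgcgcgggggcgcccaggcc
NPAS3: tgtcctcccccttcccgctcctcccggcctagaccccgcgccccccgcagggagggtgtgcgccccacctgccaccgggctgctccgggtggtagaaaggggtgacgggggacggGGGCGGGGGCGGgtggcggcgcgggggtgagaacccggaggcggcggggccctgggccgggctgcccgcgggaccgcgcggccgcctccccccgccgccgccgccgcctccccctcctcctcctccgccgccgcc

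The 4 stretches differed in their GC boxes: *MAL* carried 4 GC boxes in the printed bases, *SH3GL2* and *NPAS3* 2 each, and *MPDZ* 1. In their 300-base windows G and C made up 75.0% of the bases at *MAL*, 71.0% at *SH3GL2*, 83.0% at *NPAS3* and 58.7% at *MPDZ*, against a median of 58.7% over 35114 RefSeq windows. The ratio of observed to expected CpG was 0.785 to 0.975 in these 4 windows, against a median of 0.579. All 4 had at least 55% G and C with a CpG ratio of at least 0.65, as did 41.9% of all windows, and all 4 held GGGCGG, as did 45.0% of all windows. These windows were not limited to genes counted in IGROV1, so the shares are not those of counted genes. The 6 windows of *NREP*, which has several starts, were mixed: 3 passed both limits, 1 held GGGCGG and 1 held TATAAA, the TATA box, which 11.5% of all windows hold. CACGTG, an E-box, was searched on both strands too and was in none of the 10 windows (7.26% of all windows). The 3 motifs do not overlap one another, and a match describes letters only. *NCAM1* was not compared in this way.

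*NREP* (ENSG00000134986) lies on chromosome 5 of GRCh38 from 111662621 to 111997464 on the minus strand. It had 2, 2 and 0 counts in IGROV1Res and 262, 418 and 402 counts in IGROV1Sen. This was 0.0954 ± 0.0827 CPM in IGROV1Res and 25.5 ± 4.22 CPM in IGROV1Sen (SD, n = 3 each), with no overlap between the groups. By summed counts, 4 against 1082, IGROV1Res kept 0.369% of the IGROV1Sen level (95% counting interval 0.100 to 0.947%). The fitted log2 fold change of -7.94 (standard error 0.36) was the third lowest of all tested genes. As cells were sequenced in bulk, fewer cells with a transcript and less of it per cell cannot be told apart, here or in any of the other genes. Among sensitive libraries, IGROV1Sen replicate 1, a library that stood apart, was the lowest at 20.6 CPM, against 27.6 and 28.2 CPM in replicates 2 and 3.

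*NPAS3* (ENSG00000151322, chromosome 14 from 32934933 to 33804176, plus strand) was the other gene with libraries at 0. Its counts were 1, 0 and 0 in IGROV1Res and 69, 124 and 85 in IGROV1Sen, so that a single read was seen across all resistant libraries. IGROV1Sen held 6.52 ± 1.47 CPM (SD, n = 3), the lowest sensitive level of the 6 genes, and the ratio of 1 to 278 summed counts was 0.359% with a wide 95% counting interval of 0.00905 to 2.02%. The fitted log2 fold change, -7.65 (standard error 0.53), depends on the prior count and is no bound. It was -9.53 when IGROV1Res replicate 1, which holds that read, was left out.

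*SH3GL2* and *MPDZ* lie on the short arm of chromosome 9, from 17579082 to 17797129 on the plus strand (ENSG00000107295) and from 13105704 to 13279590 on the minus strand (ENSG00000107186). *SH3GL2*, whose product bends membranes and recruits synaptojanin and dynamin to clathrin-coated buds, had 2, 4 and 3 counts in IGROV1Res and 273, 355 and 342 counts in IGROV1Sen. *MPDZ*, whose product assembles receptors and tight junction proteins through many PDZ domains, had 4, 4 and 2 counts in IGROV1Res and 314, 370 and 362 counts in IGROV1Sen. Each resistant library thus had a few reads of both genes, and each sensitive library had 273 or more. *SH3GL2* averaged 0.212 ± 0.0671 CPM in IGROV1Res and 23.0 ± 1.32 CPM in IGROV1Sen, and *MPDZ* 0.238 ± 0.0846 CPM in IGROV1Res and 24.8 ± 0.474 CPM in IGROV1Sen (SD, n = 3 each). The remaining levels were 0.925% (0.422 to 1.76%) and 0.953% (0.456 to 1.76%) of IGROV1Sen by summed counts with 95% counting intervals, and the log2 fold changes were -6.69 and -6.66 (standard errors 0.22 and 0.21). *MPDZ* was the steadiest of the 6 genes among sensitive libraries, with a coefficient of variation of 1.91%, below the 5.36% that counting alone gives.

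*MAL* (ENSG00000172005, chromosome 2 from 95025677 to 95053996, plus strand) kept a measurable level. It had 23, 14 and 18 counts in IGROV1Res and 995, 1109 and 923 counts in IGROV1Sen, or 1.31 ± 0.352 CPM in IGROV1Res and 72.1 ± 6.87 CPM in IGROV1Sen (SD, n = 3 each). The lowest sensitive library had 64.7 CPM and the highest resistant library 1.68 CPM. IGROV1Res kept 1.81% of the sensitive level (95% counting interval 1.36 to 2.37%), at a log2 fold change of -5.78 (standard error 0.17). MAL protein organizes myelin membranes in glia and apical transport in polarized epithelia.

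*NCAM1* (ENSG00000149294, chromosome 11 from 112961247 to 113278436, plus strand) differed from the other 5 genes in that it was lowered but not near 0. Its counts were 257, 173 and 228 in IGROV1Res and 1741, 1752 and 1645 in IGROV1Sen, or 15.6 ± 3.34 CPM in IGROV1Res and 123 ± 12.4 CPM in IGROV1Sen (SD, n = 3 each). No resistant library reached a sensitive one, since the highest IGROV1Res value was 18.8 CPM and the lowest IGROV1Sen value 115 CPM. The remaining level was 12.8% (95% counting interval 11.8 to 13.9%) and the log2 fold change -2.97 (standard error 0.15). It was 124th from the lowest among tested genes, whereas *NREP*, *NPAS3*, *SH3GL2*, *MPDZ* and *MAL* were 3rd, 7th, 17th, 18th and 27th.

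**Figure D1:**
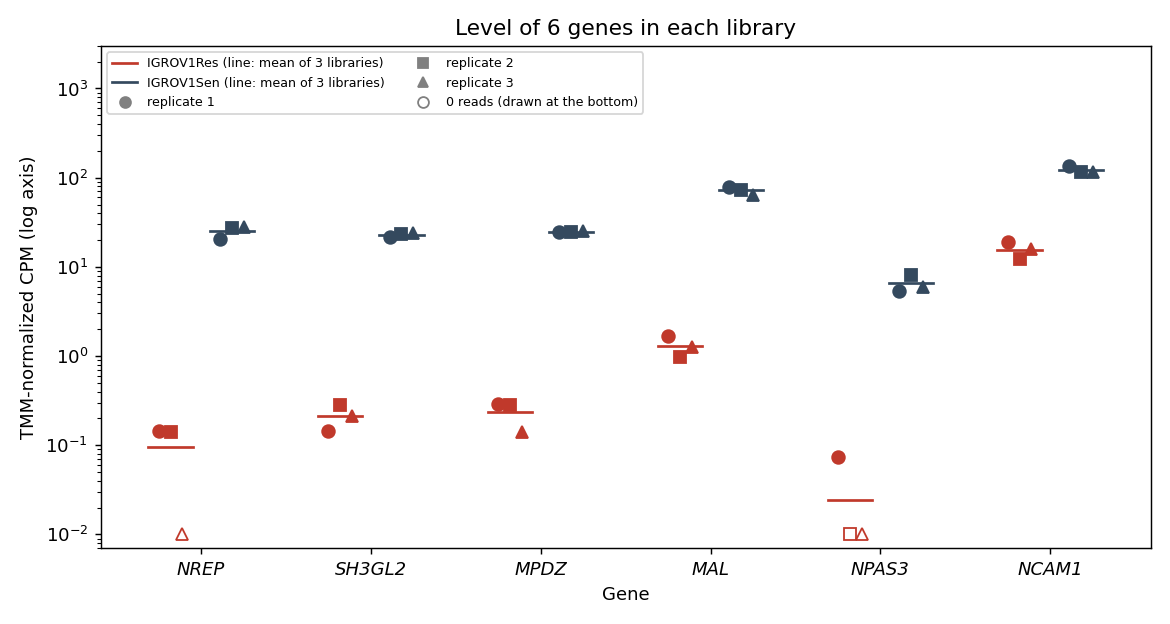
TMM-normalized CPM on a log axis of the 6 genes in each library, with IGROV1Res left of IGROV1Sen, a symbol for each replicate number and a line at the mean of 3 libraries; open symbols at the bottom have 0 reads. For *NCAM1* the IGROV1Res libraries lie between 12.1 and 18.8 CPM, below all IGROV1Sen libraries, and for *NREP* and *NPAS3* the IGROV1Res libraries hold 0 to 2 reads.

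In all 6 genes every IGROV1Res library lay below every IGROV1Sen library, which the choice of the genes fixes and which was so for 24.5% of tested genes. By edgeR's quasi-likelihood test at a Benjamini-Hochberg adjusted p under 0.05, 18.3% of tested genes were called lower and 17.4% higher in IGROV1Res, and the median log2 fold change of all tested genes was -0.0070. Levels at or under 2% of the sensitive mean were uncommon: of 10489 tested genes with at least 5 CPM in IGROV1Sen, 17 (0.162%) were there, and 5 of these 17 are *NREP*, *SH3GL2*, *MPDZ*, *MAL* and *NPAS3*, which were picked for it. Without IGROV1Res replicate 3 and IGROV1Sen replicate 1, the libraries that stood apart, the log2 fold changes were -7.52 for *NREP*, -6.73 for *SH3GL2*, -6.40 for *MPDZ*, -5.69 for *MAL*, -7.32 for *NPAS3* and -2.90 for *NCAM1*.

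The remaining level was read in each resistant library. *NCAM1* stood at 15.3, 9.88 and 13.02% of the sensitive mean in IGROV1Res replicates 1, 2 and 3, and *MAL* at 2.33, 1.36 and 1.75%. Both were lowest in replicate 2, but for *MAL* the values stand for 23, 14 and 18 reads. Whether these orders exceed counting error was not tested. *SH3GL2* had the reverse order, with 0.636% in replicate 1, 1.22% in replicate 2 and 0.915% in replicate 3, but these stand for 2, 4 and 3 reads and were not distinguishable at this depth. The counting interval of *NCAM1* lay above those of the other 5 genes, and that of *MAL* overlapped those of *SH3GL2*, *MPDZ* and *NPAS3* but not that of *NREP*.

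**Figure D2:**
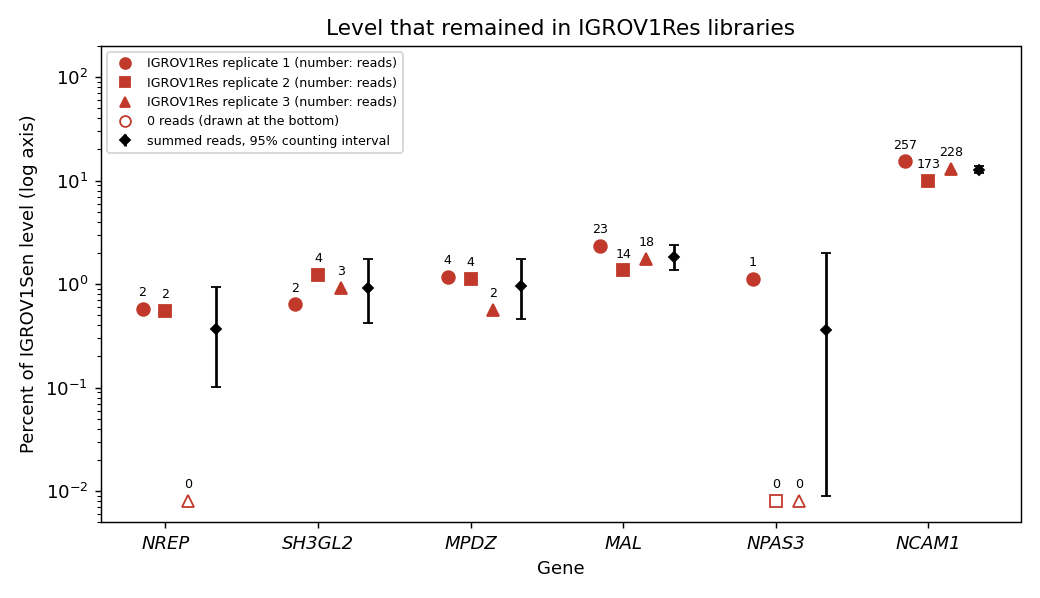
Percent of the IGROV1Sen mean that remained in each IGROV1Res library (red, with the number of reads), and by summed counts with its 95% counting interval (black), on a log axis; open symbols have 0 reads. *NCAM1* lies at 9.88 to 15.3%, *MAL* at 1.36 to 2.33%, and the other 4 genes at 1.22% or less in every library.

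Per kb of exon, the order of sensitive levels was *MAL* with 49.5, *NCAM1* with 9.63, *SH3GL2* with 8.56, *NREP* with 2.73, *MPDZ* with 2.20 and *NPAS3* with 0.706 CPM per kb. *MAL* was thus above 94.0% of tested genes in IGROV1Sen and *NPAS3* above 15.6%, so the 6 genes did not start from one level. In CPM, not divided by length, *NCAM1* at 123 was above *MAL* at 72.1 in IGROV1Sen. In IGROV1Res the order was *NCAM1* with 1.23, *MAL* with 0.897, *SH3GL2* with 0.0791, *MPDZ* with 0.0211, *NREP* with 0.0102 and *NPAS3* with 0.00264 CPM per kb. *NCAM1* and *SH3GL2* were neighbours in the sensitive order, with 9.05 to 10.7 CPM per kb for *NCAM1* and 8.004 to 8.93 CPM per kb for *SH3GL2* in the 3 libraries, and were the first and the third in the resistant order.

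The genes whose log2 CPM lay nearest to each of the 6 over all 6 libraries were found by Euclidean distance, a description over 6 points that mostly measures the step between groups. *SH3GL2* and *MPDZ* were nearest to each other, at a distance of 0.709, and *NREP* was second to both. For *NREP* itself, *MPDZ* (1.34) and *SH3GL2* (1.47) came before *PAX2*, a Müllerian and kidney transcription factor (distance 1.85), with 7, 1 and 1 counts in IGROV1Res and 394, 743 and 661 counts in IGROV1Sen. *COL5A1*, a fibrillar collagen gene, was the third nearest to *SH3GL2* and *MPDZ*, at 1.57 and 1.69. *MAL* was nearest to *MRC2*, an endocytic collagen receptor (0.550), *SLC22A3*, an organic cation transporter (1.16), and *UNC5C*, a netrin receptor (1.56).

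*NPAS3* was nearest to the gene of the secreted neuronal protein *NDNF* (0.874), to AC080038.3 (0.966) and to *NTRK2*, the receptor of brain-derived neurotrophic factor (1.05). *NTRK2* had 1, 0 and 1 counts in IGROV1Res and 41, 104 and 115 counts in IGROV1Sen, with IGROV1Sen replicate 1 the lowest sensitive library, as for *NPAS3* and *NREP*. *NCAM1* was nearest to *MOXD1*, a monooxygenase-like gene (0.652), *TUBA1A*, the neuronal alpha-tubulin (0.724), and *CDH23*, a cadherin of hair cells (0.794). *TUBA1A* had 301, 229 and 293 counts in IGROV1Res and 1323, 1876 and 1801 counts in IGROV1Sen, a partial decrease of the size seen in *NCAM1*.

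Lists of related genes were then read for whether the partners and relatives of the 6 proteins changed as well. The 6 lists name 148 genes, of which 120 were tested and the rest were not analysed here. Over these lists, 28 of 120 tested genes were called lower (23.3%) and 26 higher (21.7%) in IGROV1Res, against 18.3% and 17.4% of all tested genes, with a median log2 fold change of -0.05. The number called higher was 16 without IGROV1Sen replicate 2 and 16 without IGROV1Sen replicate 3, and without both libraries that stood apart 35 were called lower and 34 higher. The log2 fold changes of the 120 ran from -2.33 to 3.82. None fell as far as the 5 near-absent genes, but those 5 were picked for their low level, so this is no result about the lists.

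The few tested adhesion molecules of the immunoglobulin family, relatives of *NCAM1*, were mostly lower. Of 19 genes listed, 7 were counted and 6 tested. Of 6 tested, 5 fell (83.3%, against 18.3% of all tested genes) and 1 rose, with a median log2 fold change of -0.73. At a log2 change of 1 or more in size, 2 fell and 0 rose. *L1CAM*, which guides axons and is often made by ovarian carcinomas, had 302 ± 49.9 CPM in IGROV1Res and 541 ± 28.95 CPM in IGROV1Sen (SD, n = 3 each), a log2 fold change of -0.84 (standard error 0.12, edgeR adjusted p = 0.000658). *MCAM* (CD146) fell by 1.75 on the log2 scale (edgeR adjusted p = 0.00188) and *CADM4*, a nectin-like molecule, by 0.62 (edgeR adjusted p = 0.000748). *CHL1* and *ALCAM*, named after their values were seen, fell by 2.31 and 0.29. *CHL1* had few reads, with 7, 3 and 1 counts in IGROV1Res and 17, 23 and 16 counts in IGROV1Sen. Its log2 fold change was -3.16 without IGROV1Res replicate 1. The call of *ALCAM* (edgeR adjusted p = 0.0164) was lost without IGROV1Res replicate 2 or IGROV1Sen replicate 2 or 3 (edgeR adjusted p = 0.0501 to 0.0772). *NRCAM*, a partner of L1-type molecules at nodes of Ranvier, rose to 144 ± 26.2 CPM in IGROV1Res, against 92.6 ± 10.8 CPM in IGROV1Sen (SD, n = 3 each; log2 fold change 0.63, edgeR adjusted p = 0.00604).

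Per kb of exon, *L1CAM* was above *NCAM1*, *NRCAM* and *CHL1* in both groups, with 41.5 ± 6.86 in IGROV1Res and 74.4 ± 3.98 CPM per kb in IGROV1Sen (SD, n = 3 each), though below *ALCAM*, at 69.0 in IGROV1Res and 84.3 CPM per kb in IGROV1Sen. *NCAM1* made up 2.06% ± 0.554 of the summed level of *NCAM1*, *L1CAM*, *NRCAM* and *CHL1* in IGROV1Res and 10.1% ± 0.610 in IGROV1Sen (SD, n = 3 each). The summed level of these 4 genes was 60.3 ± 3.62 and 95.4 ± 3.72 CPM per kb in IGROV1Res and IGROV1Sen.

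The endocytosis machinery that endophilin serves did not follow *SH3GL2*. Of 34 tested genes, 5 fell (14.7%, against 18.3% of all tested genes), 12 rose (35.3%, against 17.4%) and 17 were not called, with a median log2 fold change of 0.18. The 12 became 6 without IGROV1Sen replicate 2 and 7 without IGROV1Sen replicate 3. *AMPH*, the nerve-terminal BAR protein amphiphysin, fell the most, to 3.30 ± 0.854 CPM in IGROV1Res, against 16.6 ± 3.30 CPM in IGROV1Sen (SD, n = 3 each), by 2.33 on the log2 scale (standard error 0.23, edgeR adjusted p = 7.83e-05). *SH3KBP1*, an adaptor that binds CBL and endophilins, fell by 0.98 (edgeR adjusted p = 2.13e-05), and *PACSIN3*, a muscle-enriched F-BAR protein, by 0.78 (edgeR adjusted p = 0.00121). *DNM3*, a dynamin, rose by 0.65 on the log2 scale (edgeR adjusted p = 0.000613).

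Endophilin A is encoded by 3 genes, and the other 2, named after their values were seen, were called higher in IGROV1Res. *SH3GL1*, the widely made form, had 52.9 ± 2.17 CPM per kb in IGROV1Res and 43.3 ± 4.91 CPM per kb in IGROV1Sen, and *SH3GL3* had 2.44 ± 0.348 CPM per kb in IGROV1Res and 1.17 ± 0.121 CPM per kb in IGROV1Sen (SD, n = 3 each). Their log2 fold changes were 0.29 (edgeR adjusted p = 0.0408) and 1.06 (edgeR adjusted p = 0.00176), and the call of *SH3GL1* was lost without IGROV1Res replicate 2 or 3 or IGROV1Sen replicate 2 or 3 (edgeR adjusted p = 0.105 to 0.173). *SH3GL2* thus made up 0.142% ± 0.0434 of endophilin A transcripts per kb in IGROV1Res and 16.3% ± 2.21 in IGROV1Sen, while the summed level of the 3 genes was 55.4 ± 2.43 and 53.1 ± 4.54 CPM per kb in IGROV1Res and IGROV1Sen (SD, n = 3 each).

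Among PDZ and polarity scaffolds, the relatives of *MPDZ*, 8 of 38 tested genes fell (21.1%, near the 18.3% of all tested genes), 3 rose (7.89%, against 17.4%) and 27 were not called, with a median log2 fold change of -0.17. Without IGROV1Sen replicate 1, 13 fell and 5 rose. *SLC9A3R2* (NHERF2), an apical scaffold of ion exchangers, had 23.5 ± 1.37 CPM in IGROV1Res and 45.2 ± 2.26 CPM in IGROV1Sen (SD, n = 3 each; log2 fold change -0.95, edgeR adjusted p = 7.74e-05). *DLG5*, a membrane-associated scaffold, fell by 0.70 (edgeR adjusted p = 0.000219) and *MAGI1*, a tight junction scaffold, by 0.45 (edgeR adjusted p = 0.00168). *CRB3*, the epithelial Crumbs protein, rose by 1.70 (edgeR adjusted p = 0.00112), though to only 4.32 ± 1.03 CPM in IGROV1Res, against 1.32 ± 0.190 CPM in IGROV1Sen (SD, n = 3 each), and the basolateral scaffold *SCRIB* rose by 0.38 (edgeR adjusted p = 0.00708).

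*PATJ*, the closest relative of *MPDZ* and a scaffold of the Crumbs complex, had 6.85 ± 0.255 CPM per kb in IGROV1Res and 6.98 ± 0.213 CPM per kb in IGROV1Sen (SD, n = 3 each), with overlapping libraries and a log2 fold change of -0.03 (standard error 0.07, edgeR adjusted p = 0.805). It was singled out after its values were seen. *MPDZ* was 0.307% ± 0.109 of the pair's summed level in IGROV1Res and 24.0% ± 0.542 in IGROV1Sen (SD, n = 3 each).

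MARVEL-domain proteins, the relatives of *MAL*, were mostly higher or not called: 1 of 17 tested genes fell (5.88%, against 18.3% of all tested genes), 7 rose (41.2%, against 17.4%) and 9 were not called, with a median log2 fold change of 0.24. The 7 became 4 without IGROV1Res replicate 2 and 4 without IGROV1Sen replicate 3. *MYADM*, a myeloid-associated raft protein, had 244 ± 17.6 CPM in IGROV1Res and 150 ± 15.1 CPM in IGROV1Sen (SD, n = 3 each; log2 fold change 0.70, edgeR adjusted p = 0.000546). *MARVELD3*, a tight junction protein, rose by 3.82 on the log2 scale (standard error 0.54, edgeR adjusted p = 0.000596), to 2.13 ± 0.385 CPM in IGROV1Res, against 0.141 ± 0.133 CPM in IGROV1Sen, which is under the level of 3 counts. Its log2 fold change was 4.68 without IGROV1Sen replicate 2. *CMTM4* rose by 0.44 (edgeR adjusted p = 0.0052), and *SYNGR1*, a synaptic vesicle protein, fell by 0.76 (edgeR adjusted p = 0.00216).

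*MAL2* and *PLLP* (plasmolipin), the closest relatives of *MAL*, were singled out after their values were seen. *MAL2*, which acts in transcytosis of epithelial cells, had 37.8 ± 1.73 CPM per kb in IGROV1Res and 37.6 ± 2.93 CPM per kb in IGROV1Sen (SD, n = 3 each; log2 fold change 0.01, standard error 0.09, edgeR adjusted p = 0.95). *PLLP* had a log2 fold change of -0.09 (edgeR adjusted p = 0.656). In IGROV1Sen *MAL* was thus the most abundant of the 3 per kb, with 56.1% ± 2.58 of their summed level, and in IGROV1Res it was 2.25% ± 0.538 (SD, n = 3 each). This order rests on the division by exon length. In CPM, *MAL2* was above *MAL* in IGROV1Sen, at 129 and 72.1 CPM.

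Of the bHLH-PAS factors, the family of *NPAS3*, 18 genes were tested: 4 fell (22.2%), 3 rose (16.7%) and 11 were not called, shares near those of all tested genes (18.3% lower and 17.4% higher), with a median log2 fold change of -0.14. Without IGROV1Sen replicate 1, 7 fell, and without IGROV1Sen replicate 2, 1 rose. *HIF1A*, the oxygen-regulated factor, had 332 ± 33.7 CPM in IGROV1Res and 543 ± 24.6 CPM in IGROV1Sen, while its relative *EPAS1* (HIF-2 alpha) had 170 ± 21.1 CPM in IGROV1Res and 119 ± 3.80 CPM in IGROV1Sen (SD, n = 3 each). Their log2 fold changes were -0.71 and 0.52 (edgeR adjusted p = 0.000433 and 0.00319). The clock genes *PER3* and *ARNTL2* fell by 1.08 and 0.74 (edgeR adjusted p = 0.00396 and 0.00474).

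*NPAS1*, a repressor of the interneuron lineage, rose by 0.51 (edgeR adjusted p = 0.0103, but 0.0528 without IGROV1Sen replicate 2). *NPAS2*, a clock factor of the forebrain named after its values were seen, rose by 0.62 (edgeR adjusted p = 0.0356), a call that held without IGROV1Res replicate 1 and not without any other single library (edgeR adjusted p = 0.0629 to 0.139). Per kb, *NPAS3* was 0.0398% ± 0.0689 of the summed level of *NPAS1*, *NPAS2* and *NPAS3* in IGROV1Res and 13.4% ± 2.91 in IGROV1Sen (SD, n = 3 each).

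*NREP* has no close relative, so genes of TGF-beta ligands, of the latent TGF-beta binding proteins that store them, and of EIF3B, a translation initiation factor that P311 binds, were read instead. Of the 8 genes listed, *TGFB1* was not among the counted genes. The only ligand genes read were thus *TGFB2* and *TGFB3*, at 1.41 and 5.67 CPM in IGROV1Sen. Of 7 tested genes, 5 fell (71.4%, against 18.3% of all tested genes), 0 rose and 2 were not called at an adjusted p under 0.05 in edgeR's quasi-likelihood test, with a median log2 fold change of -1.02. *LTBP1* had 39.0 ± 4.79 CPM in IGROV1Res and 79.1 ± 7.58 CPM in IGROV1Sen (SD, n = 3 each), a decrease of 1.02 on the log2 scale (edgeR adjusted p = 0.000155). *LTBP4* fell by 1.11 (edgeR adjusted p = 0.000371), *LTBP2* by 0.57 (edgeR adjusted p = 0.00219), and *TGFB3* by 1.32 (edgeR adjusted p = 0.00121), and *TGFB2*, named after its values were seen, had a log2 fold change of -1.48 (edgeR adjusted p = 0.00895). The 2 genes not called were *LTBP3*, at -0.50 (edgeR adjusted p = 0.0605), and *EIF3B*, at 0.28 (edgeR adjusted p = 0.0613), both named after their values were seen. Without IGROV1Sen replicate 1 both were called, in these directions (edgeR adjusted p = 0.009 and 0.00566). At an unadjusted p under 0.05, and also by DESeq2, 6 of the 7 genes counted as lower, with *LTBP3* added, and 1 as higher, which was *EIF3B*.

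**Figure D3:**
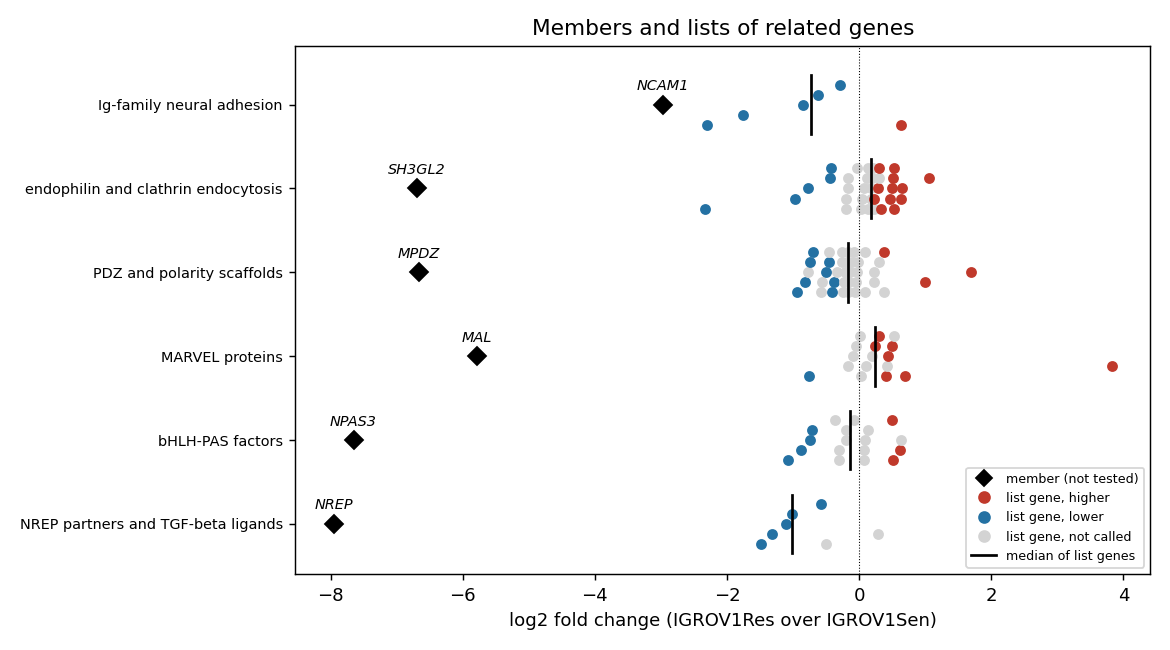
Log2 fold change of IGROV1Res over IGROV1Sen for the 6 genes (black diamonds, not tested) and for the genes of the list related to each (dots), with a bar at the median of each list. Red and blue dots were called higher and lower by edgeR's quasi-likelihood test at an adjusted p under 0.05. Every list gene lies right of the gene it is related to, which was picked for its low level.

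**Figure D4:**
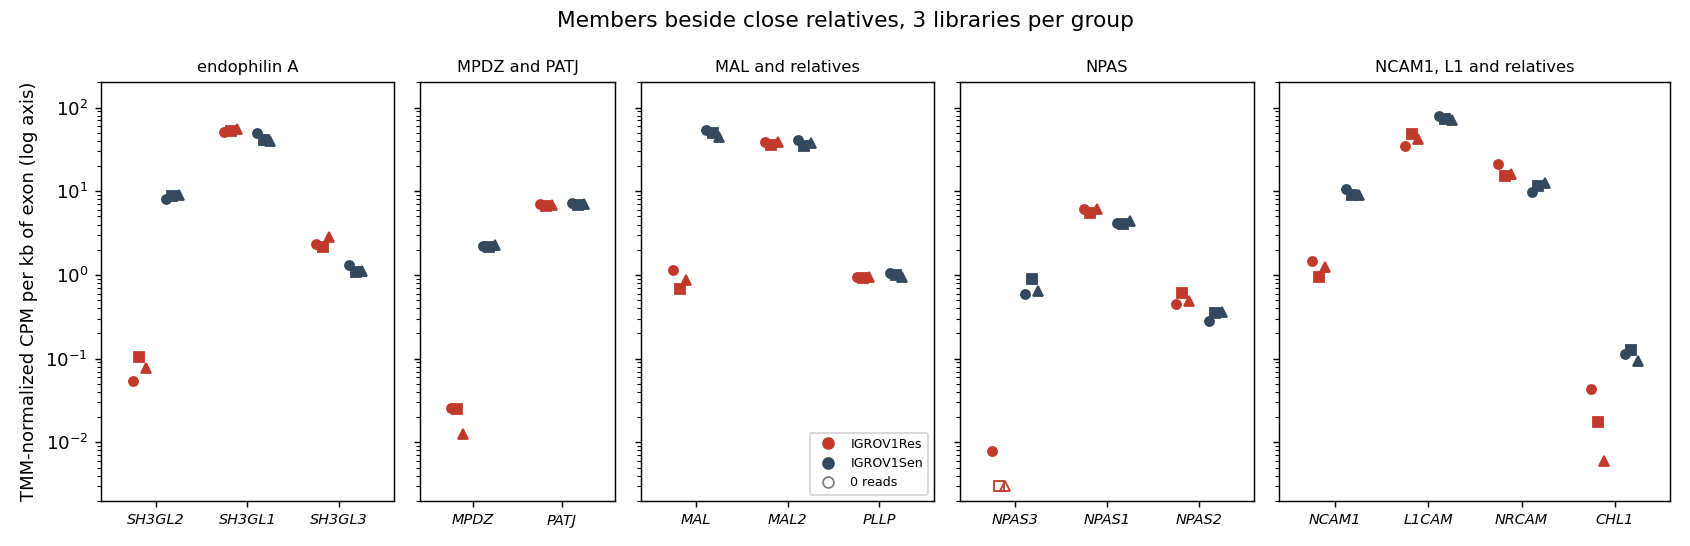
TMM-normalized CPM per kb of exon, on a log axis, for *SH3GL2*, *MPDZ*, *MAL*, *NPAS3* and *NCAM1* beside close relatives in 3 IGROV1Res (red) and 3 IGROV1Sen (blue) libraries; symbols mark replicate numbers and open symbols have 0 reads. *SH3GL1*, *PATJ* and *MAL2* lie in a narrow band across all 6 libraries, while *SH3GL2*, *MPDZ* and *MAL* lie far lower in IGROV1Res.

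The surroundings of each gene were read to see how far the low level reached along the chromosome. Of 37 tested genes that start within 1 Mb of an end of the 6 genes, 6 fell (16.2%), 5 rose (13.5%) and 26 were not called, against 18.3% and 17.4% of all tested genes, and their median log2 fold change was -0.01. Without 1 library, 2 to 8 fell and 2 to 9 rose: 3 fell without IGROV1Res replicate 2 or 3 and 2 without IGROV1Sen replicate 2 or 3, while 2 rose without IGROV1Res replicate 2, 3 without IGROV1Sen replicate 3 and 9 without IGROV1Sen replicate 1. Most of the called neighbours had small changes that passed in some of these settings only. Within 0.5 Mb of an end, 4 of 13 tested genes fell and 0 rose.

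Around *NREP*, 10 genes were tested. *EPB41L4A-AS1*, a long non-coding RNA, had 296, 299 and 369 counts in IGROV1Res and 411, 476 and 421 counts in IGROV1Sen (log2 fold change -0.45, edgeR adjusted p = 0.0122, but 0.0593 without IGROV1Res replicate 2). *STARD4*, a cholesterol transfer protein, fell by 0.53 (edgeR adjusted p = 0.0254, but 0.0558 to 0.0949 without IGROV1Res replicate 3 or IGROV1Sen replicate 2 or 3). *REEP5*, an ER-shaping protein, rose by 0.39 (edgeR adjusted p = 0.0282, but 0.0861 to 0.115 without IGROV1Res replicate 2 or 3 or IGROV1Sen replicate 2 or 3), and *SLC25A46*, a mitochondrial carrier, by 0.41 (edgeR adjusted p = 0.0142, but 0.0591 without IGROV1Res replicate 2 and 0.0769 without IGROV1Sen replicate 3). *EPB41L4A*, of the band 4.1 family, was at -0.17 and was not called (edgeR adjusted p = 0.423). None of these was near 0 in IGROV1Res.

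*SH3GL2* and *MPDZ* are 4.30 Mb apart, and 9 tested genes lie between them. Of these 1 fell, 1 rose and 7 were not called, with log2 fold changes from -0.68 to 0.46 and a median of 0.10. Of all tested genes, 18.3% were called lower and 17.4% higher. None of the 9 was called without IGROV1Res replicate 2 or 3 or without IGROV1Sen replicate 2 or 3, whereas 2 fell and 2 rose without IGROV1Sen replicate 1. *BNC2*, a zinc finger gene, had 234, 307 and 318 counts in IGROV1Res and 209, 206 and 204 counts in IGROV1Sen (log2 fold change 0.46, edgeR adjusted p = 0.0291, but 0.0996 to 0.113 without any of those 4 libraries). The gene that fell, *TTC39B*, was named after its values were seen, with 56, 55 and 54 counts in IGROV1Res and 68, 106 and 92 counts in IGROV1Sen (edgeR adjusted p = 0.0161, but 0.0513 to 0.0821 without any of those 4 libraries). *CNTLN*, the tested gene nearest to *SH3GL2*, had 228, 315 and 348 counts in IGROV1Res and 260, 308 and 305 counts in IGROV1Sen, with overlapping groups. The only tested gene within 1 Mb of *MPDZ* was *PRDX1P1*, a processed pseudogene with 7 to 15 counts per library, whose reads may be shared with its parent gene.

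Near *MAL*, 2 of 7 tested genes fell (28.6%, against 18.3% of all tested genes). *KCNIP3*, which encodes the neuronal calcium sensor calsenilin (DREAM), had 0, 2 and 4 counts in IGROV1Res and 14, 17 and 14 counts in IGROV1Sen, a log2 fold change of -2.84 (standard error 0.58, edgeR adjusted p = 0.00461) that became -2.30 without IGROV1Res replicate 1 and -3.74 without IGROV1Res replicate 3. *FAHD2A* fell by 0.48 (edgeR adjusted p = 0.0337), a call that held without IGROV1Sen replicate 1 and not without any other single library (edgeR adjusted p = 0.0582 to 0.154). *MRPS5*, a mitochondrial ribosomal protein gene and the nearest to *MAL* by the distance between starts, had 1740, 1672 and 1730 counts in IGROV1Res and 1622, 1975 and 1787 counts in IGROV1Sen, and the second nearest, *ZNF514*, was not called either (log2 fold change -0.25, edgeR adjusted p = 0.548, but 0.047 without IGROV1Sen replicate 1).

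Near *NPAS3*, 1 of 7 tested genes fell (14.3%, against 18.3% of all tested genes). This was *AKAP6*, an anchor of protein kinase A in muscle and brain, with 135, 91 and 105 counts in IGROV1Res and 123, 195 and 206 counts in IGROV1Sen (log2 fold change -0.65, edgeR adjusted p = 0.0355, but 0.0986 to 0.137 without IGROV1Res replicate 2 or 3 or IGROV1Sen replicate 2 or 3). Its groups overlapped. *ARHGAP5-AS1*, an antisense RNA and second to *AKAP6* in the distance between starts, was not called (log2 fold change -0.16, edgeR adjusted p = 0.73). Near *NCAM1*, 10 genes were tested. *NNMT*, a nicotinamide methyltransferase, had 25, 35 and 19 counts in IGROV1Res and 0 counts in all 3 IGROV1Sen libraries, and was at least 26.3-fold higher in IGROV1Res when set against 3 counts over the group (edgeR adjusted p = 0.000433).

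*PTS*, an enzyme of tetrahydrobiopterin synthesis, rose by 0.54 (edgeR adjusted p = 0.00819). *USP28*, a deubiquitinase, fell by 0.24 (edgeR adjusted p = 0.045), a call that held without IGROV1Sen replicate 1 and not without any other single library (edgeR adjusted p = 0.0699 to 0.169). *TTC12*, the tested gene nearest to *NCAM1*, had 93, 179 and 168 counts in IGROV1Res and 103, 148 and 109 counts in IGROV1Sen, with overlapping groups (log2 fold change 0.29, edgeR adjusted p = 0.367, but 0.0383 without IGROV1Res replicate 1).

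**Figure D5:**
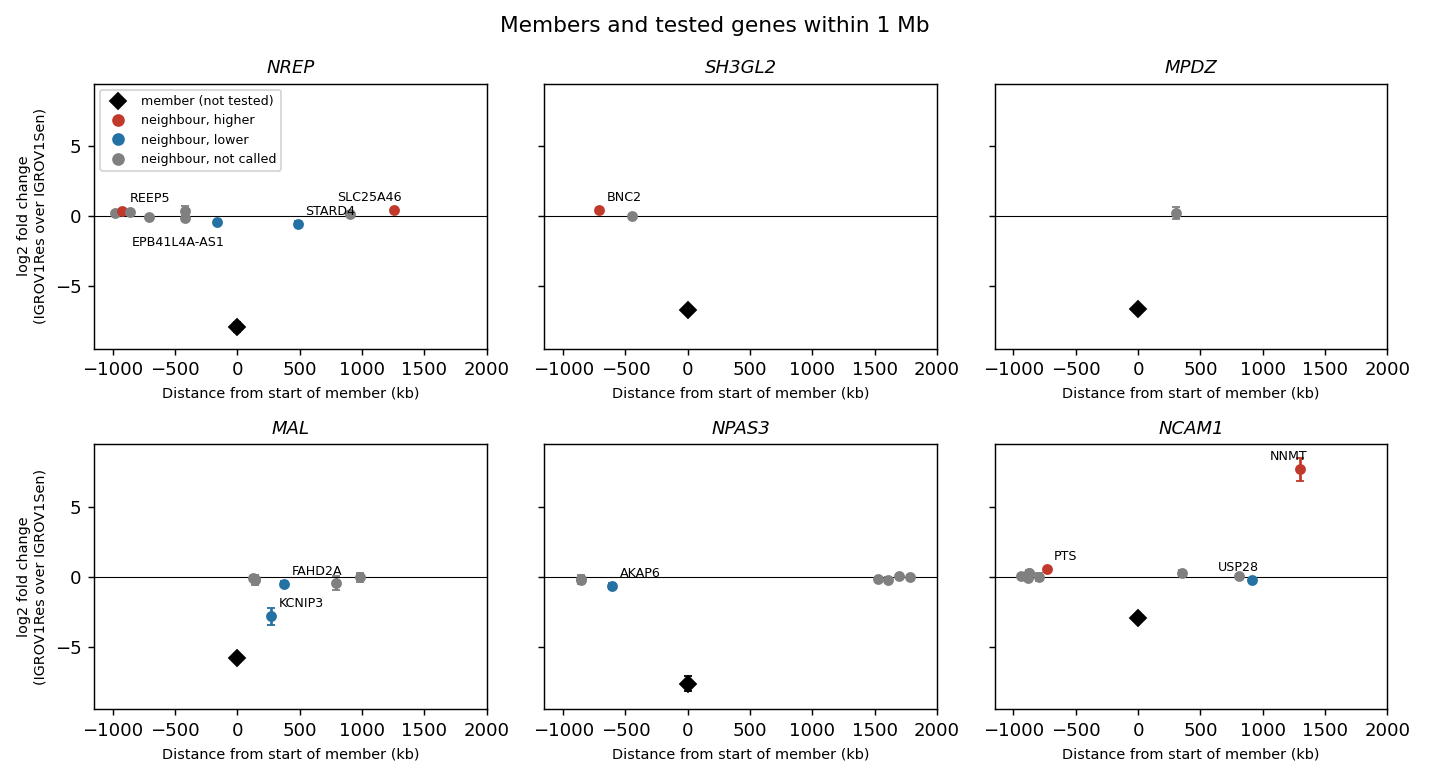
Log2 fold change of IGROV1Res over IGROV1Sen (with its standard error) against distance in kb from the start of each of the 6 genes, positive along the direction of transcription; black diamonds are the 6 genes (not tested) and dots the tested genes within 1 Mb of either end. Red and blue dots were called higher and lower by edgeR's quasi-likelihood test at an adjusted p under 0.05. The neighbours lie near 0 apart from *KCNIP3* at -2.84 and *NNMT* at 7.72, a fitted value that depends on the prior count because IGROV1Sen had no reads.

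Some gene models overlap those of the 6 genes in GENCODE release 29: 4 at *NREP*, 3 at *NCAM1*, 2 at *MAL*, 1 each at *SH3GL2* and *MPDZ* and 0 at *NPAS3*. Of these 11 models only *STARD4-AS1*, antisense to *NREP*, was counted here, with 2, 5 and 0 counts in IGROV1Res and 6, 26 and 28 counts in IGROV1Sen, too few to be tested. Whether the counting used strand is not given in the sources used here, so reads of *NREP* and of *STARD4-AS1* cannot be told apart with certainty.

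Markers of neurons and glia were read because of what the 6 genes are known for. Of 19 neuronal markers, 6 were tested: *TUBB3* and *ENO2* fell (log2 fold changes -1.96 and -1.02, edgeR adjusted p = 0.000488 and 0.0146), *INA* and *NEFH* rose (0.98 and 1.19, edgeR adjusted p = 0.00193 and 0.0334), and *SNAP25* and *MAPT* were not called. Among the tested neuronal markers, 33.3% fell and 33.3% rose, against 18.3% and 17.4% of all tested genes. The call of *ENO2* was lost without IGROV1Sen replicate 2 (edgeR adjusted p = 0.0657) and that of *NEFH* without any single library (edgeR adjusted p = 0.0605 to 0.13). The summed level of the 8 neuronal markers that were counted was 39.4 to 44.8 CPM in IGROV1Res libraries and 38.8 to 51.3 CPM in IGROV1Sen libraries, which overlapped. For glia, 2 of 9 markers were tested, and *MBP*, myelin basic protein, rose by 1.64 (edgeR adjusted p = 0.000168) while *MAG* was not called (edgeR adjusted p = 0.0388 without IGROV1Res replicate 1). Their sum was 10.8 to 14.7 CPM in IGROV1Res and 4.69 to 5.35 CPM in IGROV1Sen.

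Of 13 ovarian carcinoma epithelial markers, 9 were counted, and they summed to 2511 to 2829 CPM in IGROV1Res and 1872 to 1948 CPM in IGROV1Sen. In this sum *KRT18* alone had 1063 ± 132 CPM in IGROV1Res and 295 ± 45.8 CPM in IGROV1Sen (SD, n = 3 each). Of the 9 genes, 8 were tested, 4 rose and 1 fell. The call of *EPCAM*, which was one of the 4, held without IGROV1Res replicate 3 and not without any other single library (edgeR adjusted p = 0.0622 to 0.112). *KRT18* and *KRT8*, the simple-epithelial keratins, rose by 1.85 and 2.75 (edgeR adjusted p = 1.23e-05 and 5.13e-05), *FOLR1* fell by 0.49 (edgeR adjusted p = 0.00368), and *PAX8* was not called. *SOX17*, *KRT19* and *CDH1* were named after their values were seen. *SOX17* rose by 0.41 (edgeR adjusted p = 0.0441) with overlapping groups, and *KRT19* and *CDH1* were not called. Of 11 leukocyte, endothelial and fibroblast markers, 5 were counted, and they summed to 41.9 to 54.4 CPM in IGROV1Res and 30.6 to 35.2 CPM in IGROV1Sen. In this sum *PDGFRB* alone had 27.0 ± 8.92 CPM in IGROV1Res and 8.46 ± 1.40 CPM in IGROV1Sen (SD, n = 3 each). Of 4 tested, none of them a leukocyte marker, *PDGFRB* and *LUM* rose, *COL1A1* fell, and *VWF*, named after its values were seen, was not called. The call of *COL1A1* was lost without IGROV1Res replicate 1 or 3 or IGROV1Sen replicate 2 or 3 (edgeR adjusted p = 0.0574 to 0.101). The part of any cell mixture in the low level of the 6 genes was not tested.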

How the data were processed

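Total RNA of IGROV1Res and IGROV1Sen cells was sequenced with 3 libraries per group. Raw counts per Ensembl gene were deposited by the authors, who made them from 60-bp single-end reads and dropped genes at a quality step not described. The submitters' processing notes name edgeR and hg18, and the aligner and counter are not given in the sources used here. Other columns deposited by the authors hold their own fold changes and p-values and were not used, apart from gene symbols (13200 genes, then GENCODE release 29). Coordinates and exon lengths are those of GENCODE release 29 on GRCh38, which held 14611 of the identifiers. An exon length is that of all exons of all isoforms of a gene together. Levels, shares and ranks per kb depend on it, whichever isoforms the cells make.

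The deposited counts entered edgeR 4.0.16 (R 4.3.3), where filterByExpr (minimum count 10, minimum total count 15) left 13791 genes, libraries were scaled by TMM, and the quasi-likelihood test (glmQLFit, glmQLFTest) had the group as its single term. Calls required p under 0.05 after Benjamini-Hochberg adjustment over all tested genes. A standard error is the size of the log2 fold change divided by the root of F. Ratios of summed counts were scaled by library size and carry exact 95% binomial intervals. Totals of 12808922 to 15241394 counts set the precision. The steps were tested on simulated data.

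The 6 genes, the lists and the tests were chosen with earlier results of these data known. Named genes are the 6, the 3 nearest to each by Euclidean distance of log2 CPM (prior count 2), up to 4 called genes per list by adjusted p with up to 2 of the rarer direction, and up to 4 called neighbours within 1 Mb with the 2 nearest tested. Cell type markers, from lists of their own, and *STARD4-AS1* and *TGFB1* were named outside this rule. Other genes named outside it are said to be.

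Each result was recomputed with the likelihood ratio test of edgeR, with DESeq2 1.42.0, with RLE factors, without a composition factor, without the filter, with a minimum of 10 counts per library, with the replicate number as a block, without each library in turn, without IGROV1Sen replicate 1 and IGROV1Res replicate 3 together, with IGROV1Sen replicates 2 and 3 summed, at an adjusted p under 0.01, at a log2 change of 1 or more in size, and with windows of 0.5 and 2 Mb. OAW42 cells and the other experiments of the study were not analysed here.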

Additional observations from a re-analysis of the deposited data

How the results depend on the processing

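The log2 fold changes of the 6 genes kept their direction in every setting that gave a value: -8.33 to -7.39 for *NREP*, -6.93 to -6.50 for *SH3GL2*, -6.82 to -6.39 for *MPDZ*, -5.99 to -5.60 for *MAL*, -9.53 to -7.19 for *NPAS3* and -3.12 to -2.81 for *NCAM1*. With at least 10 counts required in every library, *NREP*, *SH3GL2*, *MPDZ* and *NPAS3* left the test and had no value.

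Counts of called genes depended on the settings. Of all genes, 2394 were called higher, but 1530 with the replicate block, 1373 at an adjusted p under 0.01, 620 at a log2 change of 1 or more in size, and 1538 to 3023 without 1 library. Called lower were 2530, but 1584 at an adjusted p under 0.01, 811 at a log2 change of 1 or more in size, and 1814 to 2992 without 1 library. Of the list genes, 26 were called higher, but 17 with the replicate block, 15 with IGROV1Sen replicates 2 and 3 summed, 14 at an adjusted p under 0.01, 3 at a log2 change of 1 or more in size, and 16 to 32 without 1 library, and 28 lower, but 8 at a log2 change of 1 or more in size and 26 to 37 without 1 library. Of the neighbours, 5 were called higher, but 3 with the replicate block, 2 at an adjusted p under 0.01, 1 at a log2 change of 1 or more in size, 0 of 13 within 0.5 Mb, 9 of 87 within 2 Mb, and 2 to 9 without 1 library. Called lower were 6 neighbours, but 1 with the replicate block, 2 with IGROV1Sen replicates 2 and 3 summed, 1 at an adjusted p under 0.01, 1 at a log2 change of 1 or more in size, 4 of 13 within 0.5 Mb, 14 of 87 within 2 Mb, and 2 to 8 without 1 library. The cause was not tested, beyond the stricter thresholds and the other windows.

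Same-numbered libraries of the groups had correlations of deviations of -0.43, 0.10 and -0.40, so replicate numbers were not taken as pairs. With unlike numbers, IGROV1Res replicate 3 had 0.55 and -0.45 with IGROV1Sen replicates 1 and 2. IGROV1Res replicate 1 had 0.35 and 0.32 with IGROV1Sen replicates 2 and 3, and IGROV1Res replicate 2 had -0.11 and 0.08 with IGROV1Sen replicates 1 and 3. The main fit, with the group as its single term, does not account for deviations shared across groups. *CNTLN*, not called, had log2 fold changes of -0.10 to 0.17 without 1 library and was at -0.0068 without IGROV1Res replicate 2, -0.10 without IGROV1Res replicate 3, and -0.10 without IGROV1Sen replicate 1 and IGROV1Res replicate 3, where *PRDX1P1* was at -0.058. *MAL2*, *PATJ* and *PAX8*, not called, also changed sign: without 1 library they ran from -0.050 to 0.066, from -0.052 to 0.0048 and from -0.13 to 0.086. With IGROV1Sen replicates 2 and 3 summed *MAL2* was at -0.019 and *PAX8* at 0.017, and *PAX8* was at 0.0030 without IGROV1Sen replicate 1 and IGROV1Res replicate 3. The cause was not tested. Chi-square per degree of freedom across genes was 1.47 between IGROV1Sen replicates 2 and 3, against 11.9 to 32.7 in the other pairs within a group, and those libraries were kept separate. Depth limits *NPAS3* the most, with 1 read in IGROV1Res.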
